A study of Homo sapiens with 24 samples.

Results

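Collagen genes were followed in HSJD-DIPG-007 cells, an established diffuse midline glioma (DMG) line, cultured with vehicle or with LLY-283, a small-molecule inhibitor of the arginine methyltransferase PRMT5. Every row of the deposited table whose Ensembl identifier maps to a symbol made of COL, a number, A and a number was taken, which gave 44 genes of 58676. The rule uses symbols and no measured value, but it was chosen with earlier results of these data known. RNA was sequenced in 24 libraries, 12 from vehicle cultures and 12 from LLY-283 cultures. In either group, days 0 and 5 were covered by 3 libraries, day 7 by 2, and days 1, 2, 3 and 10 by 1. All groups shared 1 cell line and its genotype, which the labels give as H3F3A K27M, ACVR1 R206H and PIK3CA "MIS", so no group without these alleles was compared. LLY-283 was given at the dose that inhibits growth by 40%, and the medium was replaced, with a second dose of LLY-283 or vehicle, after 5 days. The study calls the libraries of a group and day technical repeats, so the p-values measure the spread between these libraries and need not include that between independent cultures.

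Collagens are extracellular proteins built from alpha chains wound around each other into a helix, and each COL gene encodes 1 chain. Fibrillar collagens form the fibres of connective tissue, type IV collagens form the network of basement membranes, type VI collagen forms beaded filaments around cells, and FACIT collagens (fibril-associated collagens with interrupted helices) bind to the surface of fibrils. Several types need chains from different genes in the same molecule, such as COL4A1 with COL4A2, or COL9A1 with COL9A2 and COL9A3. Normal brain tissue holds little fibrillar collagen, and most of its collagen lies around vessels and in the meninges.

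Library totals lay between 13835205 and 23190369 counts, and a value in CPM is a gene's count as a share of its library total, scaled to 1000000 counts. Of 10 genes of the glial precursor state of DMG, 9 reached 1 CPM in at least 1 library, and SOX10 stayed at or below 0.611 CPM. Of 8 endothelial markers only PECAM1 reached 1 CPM, running from 4.28 to 25.0 CPM, with CDH5 at or below 0.115 CPM. Of the 8 immune markers only CD68 reached 1 CPM, with a highest value of 1.14 CPM, and PTPRC stayed at or below 0.289 CPM. The libraries of day 7 labelled repeat 2 lay near the opposite treatment group for many collagens, and they are given by their labels. The test of treatment by day is given with and without both of them. A shared fit of all 22 libraries of days 0 to 7, used below as an alternative, was run only with them. Some fibrillar collagens peaked in 3 libraries of both treatment groups, namely the LLY-283 library of day 2 and, from vehicle, repeat 3 of day 5 and repeat 1 of day 7. These genes are kept apart below.

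Sequences at annotated starts of 4 genes are shown because the day 5 comparison turns on these genes. They are COL9A1, which had the largest fold change among the called collagens, COL6A2, which was higher while its neighbour COL6A1 was not called, and the head-to-head pair COL4A1 and COL4A2, whose chains share a molecule. The sequences come from RefSeq on GRCh38.p14, each line runs 5′ to 3′, holds no annotated exon, and is in lower case except for the letters of 4 motifs searched on both strands (GGGCGG, the GC box; CCAAT, the CCAAT box; TATAAA, the TATA box; ACAAAG, a SOX motif). COL9A1 has 2 annotated starts, the second inside the gene, and counts per gene cannot tell them apart. The line for COL9A1 start 1 is chr6:70303085-70303334 on the minus strand, that for COL9A1 start 2 is chr6:70283246-70283447 on the minus strand, that for COL6A2 is chr21:46097862-46098111 on the plus strand, and that for COL4A1 and COL4A2 is chr13:110307158-110307257, written on the plus strand. The last line lies just before the COL4A1 gene and, as GENCODE draws the overlapping starts of the pair, inside the COL4A2 gene.
COL9A1 start 1: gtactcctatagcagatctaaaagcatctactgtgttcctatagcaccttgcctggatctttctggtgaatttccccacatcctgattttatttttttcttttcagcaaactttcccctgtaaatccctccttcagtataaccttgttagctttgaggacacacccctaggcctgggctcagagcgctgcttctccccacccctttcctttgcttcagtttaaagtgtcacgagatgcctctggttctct
COL9A1 start 2: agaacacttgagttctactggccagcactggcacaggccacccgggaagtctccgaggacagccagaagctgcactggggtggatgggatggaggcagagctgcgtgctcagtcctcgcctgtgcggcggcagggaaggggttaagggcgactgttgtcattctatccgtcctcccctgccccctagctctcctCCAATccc
COL6A2: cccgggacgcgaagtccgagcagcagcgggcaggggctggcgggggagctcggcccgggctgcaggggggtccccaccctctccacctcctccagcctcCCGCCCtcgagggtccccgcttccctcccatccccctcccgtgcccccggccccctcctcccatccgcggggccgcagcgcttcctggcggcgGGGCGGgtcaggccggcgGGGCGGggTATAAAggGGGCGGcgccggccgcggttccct
COL4A1-COL4A2: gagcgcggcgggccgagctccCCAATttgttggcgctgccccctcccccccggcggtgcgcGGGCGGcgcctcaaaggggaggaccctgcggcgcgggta
None of the 4 motifs was in the 250 bases of COL9A1 start 1, and start 2 held 1 CCAAT box. The COL6A2 line held 4 GC boxes and 1 TATA box, and the 100 bases of COL4A1-COL4A2 held 1 GC box and 1 CCAAT box. In windows of 250 bases before a start, the GC box was in 42.6% of all 35116 promoters and in 54.5% of the 44 collagen promoters, which covered 32 of the 44 genes. The CCAAT box was in 32.0% of all and 27.3% of collagen promoters, the TATA box in 10.7% and 18.2%, and the SOX motif in 13.7% and 13.6%. A match is a string of letters and not a measured site.

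At day 0, type VI collagen led the family. Levels of different genes were compared per length, as CPM per kilobase of the gene's MANE Select transcript, over the 6 libraries of day 0. COL6A1 had the highest level, 187.7 ± 3.91 CPM per kb (SD, n = 6), which was 54.3% of the summed per-length level of all collagens. COL6A2 followed at 30.7 ± 1.12 CPM per kb and COL5A2, a chain of type V collagen, at 29.0 ± 0.657, and the ranges of these neighbours overlapped. COL4A2 stood at 25.9 ± 0.526 CPM per kb and COL4A1, its partner chain in basement membranes, at 14.4 ± 0.523, each apart from its neighbours. COL27A1, a fibrillar chain of cartilage, at 9.98 ± 0.574 CPM per kb, COL9A3 at 9.94 ± 0.420 and COL4A5 at 9.71 ± 0.283 had overlapping ranges. COL19A1 stood at 5.81 ± 0.220 CPM per kb and COL5A1, the other main chain of type V, at 4.29 ± 0.194. The fibrillar chains of skin, bone and tendon were low, with COL1A1 at 0.986 ± 0.131 CPM per kb and COL1A2 at 0.240 ± 0.144. COL6A3, the third chain of the usual type VI molecule, stood at 0.312 ± 0.0709 CPM per kb.

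**Figure D1:**
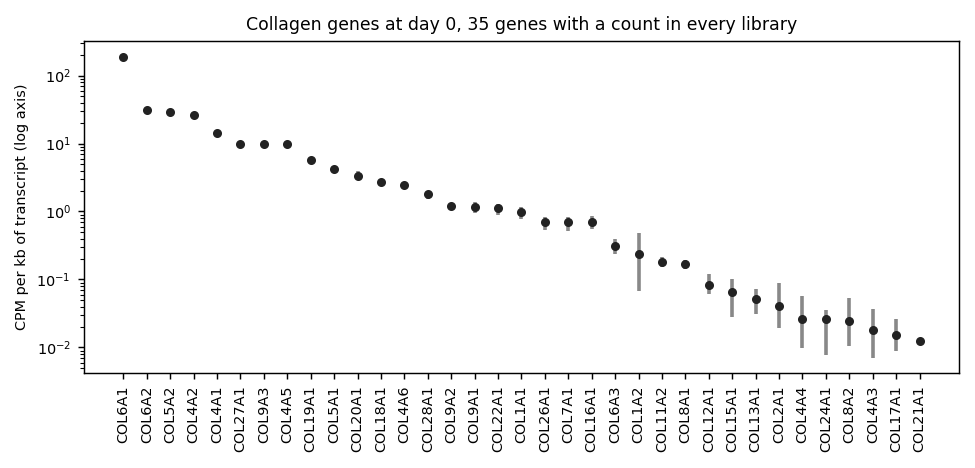
Level of each collagen gene at day 0, in CPM per kilobase of transcript on a log axis, for the genes with a count in each of the 6 libraries of that day. Points are means and grey bars run from the lowest to the highest library. COL6A1 stands alone at 187.7 CPM per kb, and COL1A2 spreads from 0.0686 to 0.483.

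No collagen was called between the treatment groups at day 0. Of 26 collagens tested, the edgeR quasi-likelihood test called 0 at an adjusted p under 0.01 and 2 had an unadjusted p under 0.05, and DESeq2 also called 0. Among all 17780 genes tested, 0.0169% were called higher with LLY-283 and 0% lower. Summed over the 44 genes, collagen took between 1558 and 2300 CPM of a library, and COL6A1 made up 37.7% to 46.9% of that sum.

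At day 5, 12 of 26 collagens tested were higher with LLY-283 than with vehicle and 1 was lower. They comprised the basement membrane chains COL4A1, COL4A2, COL4A5 and COL4A6, the FACIT chains COL9A1, COL19A1 and COL16A1, the fibrillar chains COL5A2, COL27A1 and COL11A2, COL6A2 of the beaded filaments and COL7A1 of anchoring fibrils, and COL9A3 was the gene that was lower. Among all 16491 genes tested at that day, 12% were called higher and 14.1% lower. A shared fit of all 22 libraries of days 0 to 7 called 7 collagens at day 5, all higher, and the calls of COL5A2, COL7A1, COL9A3, COL16A1, COL19A1 and COL27A1 were lost. The median log2 fold change was 0.26 over the 26 collagens, COL1A1 and COL1A2 included, and 0.02 over all genes tested. In each of the 13 called collagens, the 3 libraries of 1 group lay outside the range of the other 3. The same libraries gave the calls, so this is no further evidence, and the share over all genes was not computed. Groups can also lie apart without a call, as those of COL19A1, COL20A1 and COL1A2 did at day 0. The summed level of the 44 collagens stood at 1571, 1604 and 1737 CPM in vehicle and at 1864, 1938 and 1993 CPM with LLY-283. In bulk RNA, a change in the share of cells that express a gene and a change in RNA of that gene per cell cannot be told apart.

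**Figure D2:**
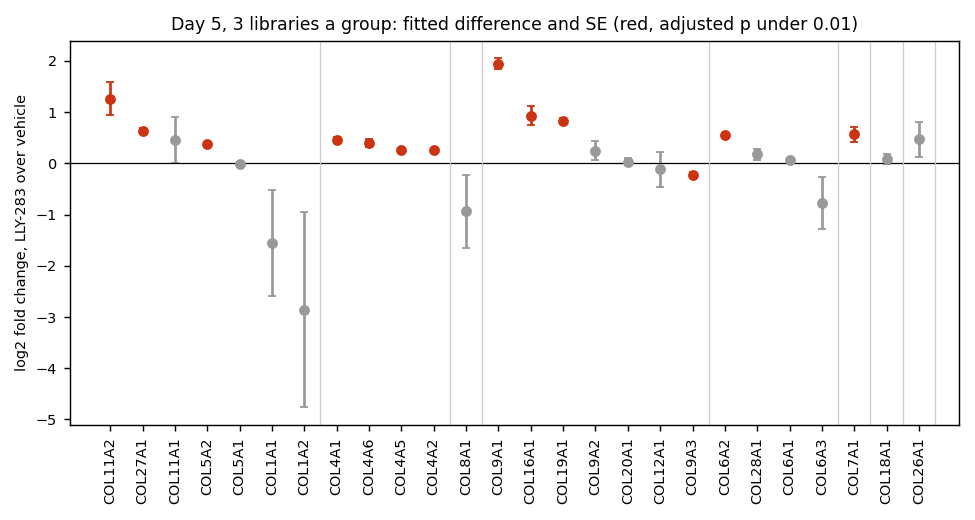
Fitted log2 fold change of LLY-283 over vehicle at day 5 for the 26 collagens tested, with 3 libraries a group and bars of 1 SE. Genes are grouped by class and ordered within it, and red marks an adjusted p under 0.01. COL9A1 lies highest, at 1.95, and COL1A1 and COL1A2 have the widest bars among the grey points below 0.

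The summed levels of several other marker lists were higher with LLY-283 at day 5, without a test. Abundant genes carry these sums, such as PTPRZ1, NES, VIM, MAP2 and NOTCH3, with medians of 2989, 2376, 1368, 357 and 224 CPM over all libraries. A sum therefore does not show that the other genes of its list differed. Among the chondrocyte markers COMP, HAPLN1 and ACAN had lower means with LLY-283, and SOX9, MATN1 and MATN3 higher ones. The summed level of the 10 glial precursor genes ran from 8461 to 8752 CPM in vehicle and from 9243 to 9382 CPM with LLY-283. That of the 8 chondrocyte markers ran from 246 to 269 CPM and from 344 to 352 CPM, carried by SOX9, and the defining marker ACAN was at or below 0.506 CPM and CNMD at or below 0.111 CPM in all 24 libraries. The 20 fibroblast markers, collagens left out, summed to between 2587 and 2715 CPM in vehicle and between 2773 and 2865 CPM with LLY-283, and 18 of the 20 reached 1 CPM in some library while TWIST1 stayed at or below 0.212 CPM and TWIST2 at or below 0.161 CPM. The 8 neuron markers summed to between 412 and 422 CPM in vehicle and between 506 and 512 CPM with LLY-283, and the 8 pericyte and smooth muscle markers to between 263 and 267 CPM and between 273 and 291 CPM. The sums of the endothelial, immune and epithelial lists overlapped between the groups and stayed below 8 CPM. The part of these levels in the collagen differences was not tested.

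Type IX collagen, a FACIT best known from cartilage, held both the called collagen with the largest fold change and the only collagen called lower. COL9A1 (chromosome 6, 70216040 to 70303084, minus strand, 38 exons in its MANE transcript, GRCh38) stood at 4.13, 5.21 and 5.13 CPM in the vehicle libraries of day 5 and at 17.3, 18.9 and 20.3 CPM in the LLY-283 libraries. The lowest LLY-283 library was thus more than 3 times the highest vehicle library. The log2 fold change was 1.95 ± 0.11 (SE, adjusted p = 1.53e-13). At day 0 it stood at 4.36, 5.05 and 3.51 CPM in vehicle and 4.23, 4.80 and 4.22 CPM in LLY-283 libraries, which overlapped. COL9A1 at days 1, 2, 3 and 10 stood at 4.31, 3.03, 3.42 and 5.33 CPM in vehicle and 2.75, 3.08, 6.58 and 10.1 CPM with LLY-283, so the treated library was about level with or below vehicle at days 1 and 2 and above it at days 3 and 10. The day 7 libraries, repeats 1 and 2 in that order, held 3.48 and 8.15 CPM in vehicle and 11.2 and 2.24 CPM with LLY-283, and the order of the groups was opposite in the repeats. An antisense gene that overlaps COL9A1 (ENSG00000253809) had 0 counts in all 6 libraries of day 5.

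The partner chains of COL9A1 in type IX molecules had other values. COL9A3 stood at 35.6, 37.4 and 36.4 CPM in vehicle and 32.3, 30.7 and 32.1 CPM with LLY-283 at day 5, a log2 fold change of -0.23 ± 0.06 (SE, adjusted p = 0.00195). All 3 treated libraries lay below all 3 vehicle libraries, and the call was lost with DESeq2 (adjusted p = 0.0129) and without LLY-283 day 5 replicate 2 (adjusted p = 0.0171). At day 0 the range over the 6 libraries was 23.8 to 26.6 CPM. COL9A3 at days 1, 2, 3 and 10 stood at 30.2, 28.8, 35.2 and 31.9 CPM in vehicle and 25.4, 27, 22.7 and 23.7 CPM with LLY-283, and at 41.2 and 32.7 CPM in vehicle and 36.8 and 37.1 CPM with LLY-283 in the repeats of day 7. COL9A3 overlaps TCFL5 on the other strand, which averaged 35.2 ± 1.68 CPM without LLY-283 and 32.7 ± 0.597 CPM with it (SD, n = 3). The library kit keeps the strand, but whether the counting used it is not given in the sources used here, and without it reads of overlapping exons cannot be told apart. COL9A2 held 3.24, 3.86 and 2.89 CPM in vehicle and 3.98, 4.44 and 3.74 CPM with LLY-283, overlapping, and its log2 fold change of 0.25 ± 0.18 (SE, adjusted p = 0.283) was not called. COL9A2 in the other libraries ran over 3.05 to 3.78 CPM at day 0, 2.76, 2.69, 4.03 and 6.10 CPM in vehicle and 3.56, 3.08, 3.75 and 5.69 CPM with LLY-283 at days 1, 2, 3 and 10, and 4.61 and 4.45 CPM in vehicle and 4.17 and 4.20 CPM with LLY-283 at day 7. Per length, the ratio of COL9A1 to COL9A3 was 0.0892 ± 0.00940 in vehicle and 0.402 ± 0.0352 with LLY-283 at day 5 (SD, n = 3), against 0.118 and 0.119 at day 0.

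COL19A1, a FACIT gene that lies tail to tail with COL9A1 on chromosome 6 with 3572 bases between them and no coding gene in the gap, was also higher with LLY-283. It stood at 27.8, 32.3 and 30.1 CPM in vehicle and 50.2, 54.0 and 58.6 CPM with LLY-283 at day 5, with a log2 fold change of 0.83 ± 0.06 (SE, adjusted p = 5.47e-11). The day 0 libraries held 53.1, 52.2 and 51.7 CPM in vehicle and 48.5, 48.6 and 50.4 CPM with LLY-283, so the treated libraries of day 5 lay near day 0 and the vehicle libraries below it. COL19A1 at days 1, 2, 3 and 10 stood at 41.7, 29.9, 29.6 and 44.9 CPM in vehicle and 45.7, 34.3, 42.5 and 50.1 CPM with LLY-283, and in the repeats of day 7 at 29.6 and 29.9 CPM in vehicle and 58.1 and 26.7 CPM with LLY-283. LMBRD1, which overlaps COL19A1 on the other strand, averaged 33.9 ± 1.53 CPM without LLY-283 and 46.03 ± 1.23 CPM with it (SD, n = 3), and its part in the COL19A1 counts was not tested.

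The other FACIT genes gave 1 further call. COL16A1 stood at 2.16, 2.57 and 2.60 CPM in vehicle and 3.75, 5.82 and 4.66 CPM with LLY-283 at day 5, a log2 fold change of 0.94 ± 0.19 (SE, adjusted p = 0.000295). All treated libraries lay above all vehicle libraries, with more spread among the treated ones. Its range at day 0 was 2.99 to 4.67 CPM, with 2.03, 1.63, 1.71 and 3.6 CPM in vehicle and 2.41, 2.49, 3.23 and 4.51 CPM with LLY-283 at days 1, 2, 3 and 10, and 1.71 and 2.05 CPM in vehicle and 2.67 and 1.01 CPM with LLY-283 at day 7. COL20A1, whose role is little known, held 41.7, 46.4 and 41.4 CPM in vehicle and 39.6, 47.9 and 47.4 CPM with LLY-283, with overlapping groups and a log2 fold change of 0.03 ± 0.07 (SE, adjusted p = 0.737). COL20A1 ran over 24 to 31.2 CPM at day 0, and stood at 28.9, 37.8, 47.9 and 31.3 CPM in vehicle and 28.2, 37.1, 34.4 and 23.4 CPM with LLY-283 at days 1, 2, 3 and 10 and at 43.5 and 24.7 CPM in vehicle and 37.5 and 32.5 CPM with LLY-283 at day 7. COL12A1, found in dense connective tissue, held 1.08, 1.48 and 3.32 CPM in vehicle and 1.56, 1.66 and 2.20 CPM with LLY-283, overlapping, with a log2 fold change of -0.11 ± 0.34 (SE, adjusted p = 0.828). COL12A1 in the other libraries ran over 0.723 to 1.42 CPM at day 0, 0.733, 0.914, 1.47 and 0.277 CPM in vehicle and 1.32, 2.71, 1.21 and 1.46 CPM with LLY-283 at days 1, 2, 3 and 10, and 2.63 and 1.15 CPM in vehicle and 2.00 and 0.336 CPM with LLY-283 at day 7. COL22A1, the collagen of tissue junctions, was not tested at day 5, since its counts were too low there.

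All 4 type IV chains that could be tested were higher with LLY-283 at day 5. COL4A1 (chromosome 13, 110148963 to 110307157, minus strand) stood at 86.3, 84.5 and 86.6 CPM in vehicle and 125, 115 and 122 CPM with LLY-283, a log2 fold change of 0.47 ± 0.04 (SE, adjusted p = 1.1e-09). COL4A2 (chromosome 13, 110305812 to 110513209, plus strand), which begins beside it in the opposite direction, stood at 166, 158 and 163 CPM in vehicle and 196, 195 and 202 CPM with LLY-283, a log2 fold change of 0.25 ± 0.04 (SE, adjusted p = 3.51e-06). The chains of the common type IV molecule thus differed in the same direction, with no overlap between groups. The ratio of COL4A1 to COL4A2 per length was 0.521 ± 0.00828 in vehicle and 0.604 ± 0.0262 with LLY-283 (SD, n = 3), against 0.558 and 0.552 at day 0. COL4A1 at day 0 stood at 97.3, 90.7 and 93.1 CPM in vehicle and 90.6, 93.9 and 98.9 CPM with LLY-283, and COL4A2 at 164, 163 and 169 CPM in vehicle and 165, 169 and 172 CPM with LLY-283, and both pairs overlapped. COL4A1 at days 1, 2, 3 and 10 stood at 80.2, 90.3, 78.3 and 166 CPM in vehicle and 85.5, 99.97, 129.6 and 188 CPM with LLY-283, and at 84.5 and 109 CPM in vehicle and 110.3 and 89.97 CPM with LLY-283 in the repeats of day 7. COL4A2 on the same days stood at 157, 165, 155 and 234 CPM in vehicle and 150.1, 180.0, 206.4 and 253 CPM with LLY-283, and at 159.7 and 195 CPM in vehicle and 192 and 174 CPM with LLY-283 at day 7. Both genes had their highest value of all libraries at day 10.

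COL4A5 and COL4A6, the chains of a second type IV network, lie head to head on chromosome X, 341 bases apart. COL4A5 stood at 91.5, 91.6 and 103 CPM in vehicle and 115, 116 and 119 CPM with LLY-283 at day 5, a log2 fold change of 0.27 ± 0.04 (SE, adjusted p = 1.58e-05). COL4A6 stood at 16.6, 15.4 and 16.4 CPM in vehicle and 22.1, 20.3 and 22.7 CPM with LLY-283, a log2 fold change of 0.40 ± 0.08 (SE, adjusted p = 0.000151). Neither pair of groups overlapped, and the treated libraries lay within a narrow band in both genes. COL4A5 at day 0 stood at 65.0, 65.5 and 63.0 CPM in vehicle and 62.6, 64.0 and 60.4 CPM with LLY-283, at days 1, 2, 3 and 10 at 83.0, 84.7, 82.1 and 113 CPM in vehicle and 78.6, 87.9, 113 and 121 CPM with LLY-283, and at day 7 at 81.5 and 94.2 CPM in vehicle and 99.9 and 84.8 CPM with LLY-283. COL4A6 at day 0 stood at 16.9, 17.6 and 14.8 CPM in vehicle and 15.4, 15.9 and 16.2 CPM with LLY-283, at days 1, 2, 3 and 10 at 16.9, 15.9, 14.3 and 15.5 CPM in vehicle and 17.7, 14.2, 20.7 and 17.8 CPM with LLY-283, and at day 7 at 14.6 and 16.8 CPM in vehicle and 18.3 and 15.2 CPM with LLY-283. COL4A5 was higher at day 5 than at day 0 in both groups, whereas the vehicle libraries of COL4A6 stayed close to day 0. COL4A3 and COL4A4, known from kidney, lung and inner ear, were below 1 CPM on average and were not tested.

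Among fibrillar collagens, chains of types V, XI and XXVII were higher. COL5A2 stood at 197, 209 and 209 CPM in vehicle and 274, 269 and 269 CPM with LLY-283 at day 5, a log2 fold change of 0.37 ± 0.04 (SE, adjusted p = 3.07e-09). COL5A1, which shares type V molecules with it, held 42.6, 44.7 and 47.1 CPM in vehicle and 43.9, 45.3 and 45.7 CPM with LLY-283, and its log2 fold change was -0.02 ± 0.05 (SE, adjusted p = 0.813). The COL5A2 groups were apart and the COL5A1 groups lay on top of each other. The ratio of COL5A1 to COL5A2 per length was 0.176 in vehicle and 0.134 with LLY-283 at day 5, against 0.149 and 0.147 at day 0. COL5A2 at day 0 stood at 201, 191 and 201 CPM in vehicle and 197, 195 and 203 CPM with LLY-283, at days 1, 2, 3 and 10 at 246, 206.1, 194 and 263 CPM in vehicle and 248, 229, 257 and 313 CPM with LLY-283, and at day 7 at 189 and 250.4 CPM in vehicle and 266 and 197 CPM with LLY-283. COL5A1 ran over 34.1 to 38.4 CPM at day 0, stood at 42.5, 46.3, 41.2 and 46.8 CPM in vehicle and 41.2, 46.3, 52.2 and 50.3 CPM with LLY-283 at days 1, 2, 3 and 10, and at 37.5 and 42.1 CPM in vehicle and 41.3 and 40.3 CPM with LLY-283 at day 7. From day 2 on the COL5A2 level was higher with LLY-283 on every day with the exception of day 7 repeat 2.

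COL27A1, which forms thin fibrils in cartilage, stood at 38.2, 45.8 and 39.7 CPM in vehicle and 59.2, 68.3 and 67.4 CPM with LLY-283 at day 5, a log2 fold change of 0.63 ± 0.06 (SE, adjusted p = 4.18e-07). At day 0 it stood at 86.1, 74.5 and 80.0 CPM in vehicle and 74.7, 76.5 and 75.8 CPM with LLY-283, so both groups were lower at day 5 and vehicle more so. COL27A1 at days 1, 2, 3 and 10 stood at 61.4, 56.0, 57.6 and 33.0 CPM in vehicle and 61.6, 65.1, 71.2 and 54.2 CPM with LLY-283, and at 39.2 and 47.8 CPM in vehicle and 67.7 and 30.9 CPM with LLY-283 in the repeats of day 7. COL11A2, a chain of the type XI collagen of cartilage fibrils, was low, with 0.599, 0.835 and 0.723 CPM in vehicle and 1.27, 1.71 and 2.31 CPM with LLY-283 at day 5. Its log2 fold change was 1.27 ± 0.32 (SE, adjusted p = 0.00277). The call was lost without Vehicle day 5 replicate 1 (adjusted p = 0.0215), Vehicle day 5 replicate 3 (adjusted p = 0.0114), LLY-283 day 5 replicate 2 (adjusted p = 0.0105) or LLY-283 day 5 replicate 3 (adjusted p = 0.0418). COL11A2 ran over 0.980 to 1.37 CPM at day 0, stood at 0.992, 0.529, 0.855 and 1.25 CPM in vehicle and 0.976, 1.11, 0.981 and 1.37 CPM with LLY-283 at days 1, 2, 3 and 10, and at 0.750 and 0.700 CPM in vehicle and 1.39 and 0.840 CPM with LLY-283 at day 7. COL11A1, the other main type XI chain, held 0.419, 0.386 and 1.52 CPM in vehicle and 1.04, 1.39 and 0.717 CPM with LLY-283 at day 5, overlapping, and its log2 fold change was 0.45 ± 0.45 (SE, adjusted p = 0.475). COL11A1 ran over 0 to 0.262 CPM at day 0, stood at 0.129, 0.0962, 0.305 and 0.208 CPM in vehicle and 0.172, 1.06, 0.519 and 0.319 CPM with LLY-283 at days 1, 2, 3 and 10, and at 1.02 and 0.400 CPM in vehicle and 0.945 and 0.112 CPM with LLY-283 at day 7.

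Of the type VI chains, COL6A2 was called and COL6A1 was not. COL6A2 (chromosome 21, 46098112 to 46132848, plus strand) stood at 91.1, 93.2 and 94.7 CPM in vehicle and 132, 139 and 145 CPM with LLY-283 at day 5, a log2 fold change of 0.55 ± 0.04 (SE, adjusted p = 3.04e-11). COL6A1 (chromosome 21, 45981770 to 46005050, plus strand), the most abundant collagen of these cells and 93062 bases away on the same strand, held 687, 689 and 714 CPM in vehicle and 703, 759.5 and 773 CPM with LLY-283, a log2 fold change of 0.07 ± 0.04 (SE, adjusted p = 0.139). The groups of COL6A2 were apart, and those of COL6A1 overlapped. The per-length ratio of COL6A2 to COL6A1 was 0.163 ± 0.00185 in vehicle and 0.227 ± 0.00322 with LLY-283 at day 5 (SD, n = 3), and 0.164 and 0.163 at day 0. COL6A2 at day 0 stood at 106, 106 and 102 CPM in vehicle and 104, 113 and 104 CPM with LLY-283, at days 1, 2, 3 and 10 at 124, 109, 84.4 and 228 CPM in vehicle and 124, 124, 139 and 222 CPM with LLY-283, and at day 7 at 94.1 and 113 CPM in vehicle and 109.6 and 101 CPM with LLY-283. COL6A1 at day 0 stood at 785, 789 and 768 CPM in vehicle and 788, 819 and 785 CPM with LLY-283, at days 1, 2, 3 and 10 at 805, 735, 685 and 1034 CPM in vehicle and 802, 722, 719 and 859 CPM with LLY-283, and at day 7 at 687 and 673 CPM in vehicle and 707 and 683 CPM with LLY-283. The COL6A2 groups were apart at day 5, and at day 7 their order was opposite in the repeats. On the days with 1 library a group, COL6A2 was level at day 1 and higher with LLY-283 at days 2 and 3. At day 10 the 2 libraries were close, and both were at their highest.

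COL6A3 held 1.74, 2.63 and 6.29 CPM in vehicle and 1.73, 2.19 and 2.25 CPM with LLY-283 at day 5, with a log2 fold change of -0.78 ± 0.51 (SE, adjusted p = 0.303), and the highest vehicle value came from repeat 3. COL6A3 ran over 2.53 to 4.17 CPM at day 0, stood at 2.07, 2.64, 1.77 and 2.01 CPM in vehicle and 1.61, 4.09, 2.37 and 2.5 CPM with LLY-283 at days 1, 2, 3 and 10, and at 5.04 and 2.90 CPM in vehicle and 2.33 and 2.24 CPM with LLY-283 at day 7. COL28A1, a collagen related to type VI that is known from peripheral nerve, held 9.41, 9.51 and 11.6 CPM in vehicle and 10.7, 12.7 and 11.6 CPM with LLY-283, with a log2 fold change of 0.18 ± 0.11 (SE, adjusted p = 0.206). Neither gene was called, and their groups overlapped. COL28A1 ran over 6.51 to 8.55 CPM at day 0, stood at 8.62, 8.80, 10.1 and 6.79 CPM in vehicle and 9.01, 9.50, 10.3 and 6.10 CPM with LLY-283 at days 1, 2, 3 and 10, and at 9.27 and 8.60 CPM in vehicle and 7.61 and 8.68 CPM with LLY-283 at day 7.

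COL7A1, the anchoring fibril collagen that ties epithelia to their stroma, stood at 3.83, 5.72 and 5.42 CPM in vehicle and 6.81, 7.59 and 8.15 CPM with LLY-283 at day 5, a log2 fold change of 0.57 ± 0.15 (SE, adjusted p = 0.00272). The groups did not overlap, but the call was lost without Vehicle day 5 replicate 1 (adjusted p = 0.0498), LLY-283 day 5 replicate 2 (adjusted p = 0.0119) or LLY-283 day 5 replicate 3 (adjusted p = 0.0194), and with DESeq2 (adjusted p = 0.0155). COL7A1 ran over 4.77 to 7.56 CPM at day 0, stood at 4.23, 4.23, 3.91 and 7.41 CPM in vehicle and 3.62, 4.62, 7.10 and 6.10 CPM with LLY-283 at days 1, 2, 3 and 10, and at 4.72 and 6.05 CPM in vehicle and 8.61 and 4.09 CPM with LLY-283 at day 7. COL18A1, the multiplexin of basement membranes from which endostatin is cut, held 10.4, 11.4 and 11.6 CPM in vehicle and 12.7, 10.8 and 12.5 CPM with LLY-283, with a log2 fold change of 0.08 ± 0.10 (SE, adjusted p = 0.547) and overlapping groups. COL18A1 ran over 13.6 to 15.2 CPM at day 0, stood at 10.4, 13.7, 12.8 and 11.3 CPM in vehicle and 11.6, 15.8, 17.7 and 11 CPM with LLY-283 at days 1, 2, 3 and 10, and at 9.81 and 9.35 CPM in vehicle and 8.50 and 11.5 CPM with LLY-283 at day 7. It overlaps SLC19A1 on the other strand, which averaged 55.8 ± 1.39 CPM without LLY-283 and 45.6 ± 2.86 CPM with it (SD, n = 3). COL26A1 held 0.659, 1.16 and 0.723 CPM in vehicle and 0.923, 1.18 and 1.49 CPM with LLY-283, with a log2 fold change of 0.47 ± 0.34 (SE, adjusted p = 0.296) and overlapping groups. COL26A1 ran over 1.57 to 2.45 CPM at day 0, stood at 2.76, 2.89, 2.02 and 0.416 CPM in vehicle and 1.78, 2.81, 2.37 and 1.41 CPM with LLY-283 at days 1, 2, 3 and 10, and at 1.39 and 2.20 CPM in vehicle and 1.44 and 1.23 CPM with LLY-283 at day 7.

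**Figure D3:**
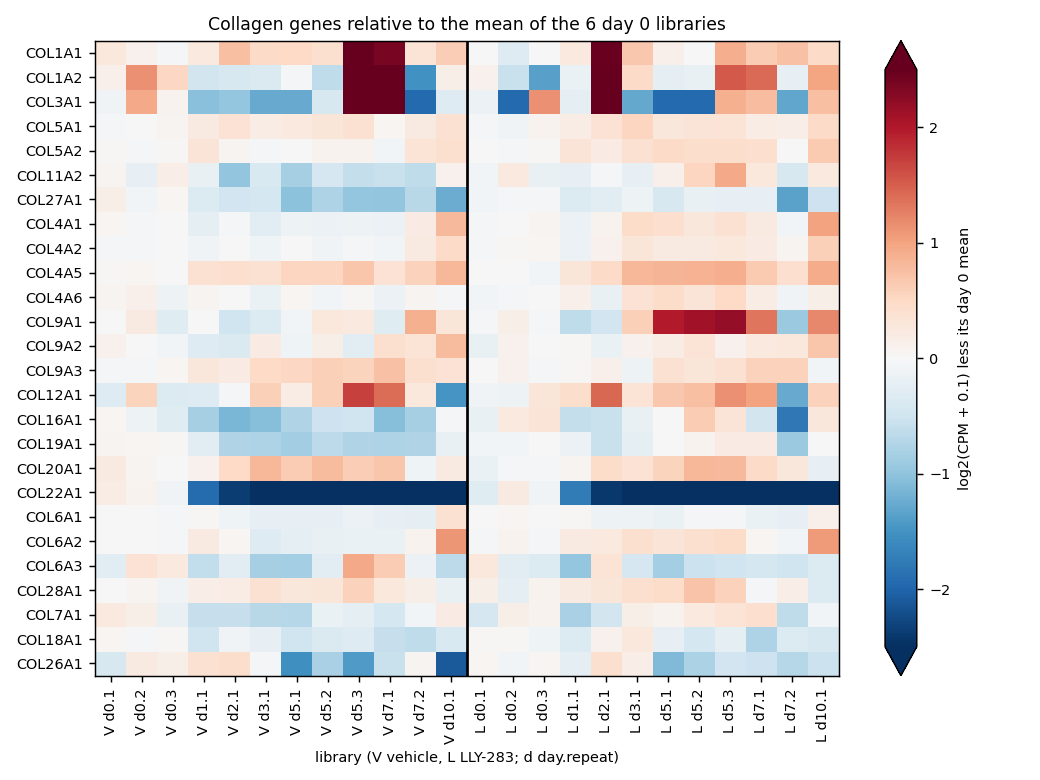
Level of the 26 collagens with a mean of at least 1 CPM in each of the 24 libraries, as log2(CPM + 0.1) less the gene's mean over the 6 day 0 libraries, ordered by class with vehicle on the left. Colours stop at the ends of the scale. The LLY-283 libraries of day 5 are red for COL9A1, COL1A1 to COL3A1 are dark red in 3 libraries of both groups, and COL22A1 is blue in all libraries after day 0.

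Collagens also changed over culture time within each treatment group. In vehicle, 5 of 26 collagens tested rose from day 0 to day 5 and 5 fell, where 22.2% of the 17106 genes tested rose and 16.7% fell. With LLY-283, 13 of 27 rose and 3 fell, where 22.9% of 17341 genes rose and 19.5% fell. The median log2 fold change of the collagens was 0.02 in vehicle and 0.36 with LLY-283, and over all genes tested it was -0.02 and 0.01. These comparisons share their libraries with the day 5 comparison, so they are no independent evidence for it.

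Among the collagens tested, COL22A1 had the largest change with time and had it in both groups. It stood at 8.19, 7.60 and 6.71 CPM in vehicle at day 0, at 1.81, 1.30, 0.733 and 0.346 CPM at days 1, 2, 3 and 10, at 0.539, 0.514 and 0.578 CPM at day 5 and at 0.911 and 0.550 CPM at day 7. With LLY-283 it stood at 5.75, 8.34 and 6.76 CPM at day 0, at 2.07, 1.27, 0.866 and 0.273 CPM at days 1, 2, 3 and 10, at 1.15, 0.481 and 0.922 CPM at day 5 and at 1.00 and 1.06 CPM at day 7. Every library after day 0 lay below every library of day 0. From day 0 to day 5 the log2 fold change was -3.72 ± 0.21 (SE, adjusted p = 2.69e-14) in vehicle and -3.01 ± 0.23 (SE, adjusted p = 1.63e-10) with LLY-283.

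COL4A5, COL9A3, COL20A1, COL5A1 and COL28A1 rose in both groups. The log2 fold change of COL4A5 was 0.62 ± 0.05 (SE, adjusted p = 8.23e-12) in vehicle and 0.92 ± 0.04 (SE, adjusted p = 5.44e-16) with LLY-283. That of COL20A1 was 0.65 ± 0.06 (SE, adjusted p = 1.17e-09) and 0.85 ± 0.06 (SE, adjusted p = 3.08e-10), in the same order. For COL9A3 it was 0.62 ± 0.06 (SE, adjusted p = 1.15e-09) in vehicle and 0.36 ± 0.06 (SE, adjusted p = 1.37e-05) with LLY-283. COL5A1 and COL28A1 rose by smaller steps, with 0.35 ± 0.06 (SE, adjusted p = 5.77e-06) and 0.44 ± 0.11 (SE, adjusted p = 0.00182) in vehicle and 0.33 ± 0.05 (SE, adjusted p = 8.05e-06) and 0.59 ± 0.11 (SE, adjusted p = 6.97e-05) with LLY-283. The COL28A1 rise in vehicle was lost without Vehicle day 0 replicate 3 (adjusted p = 0.0101) or Vehicle day 5 replicate 3 (adjusted p = 0.0175).

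COL19A1 fell in vehicle, with a log2 fold change of -0.75 ± 0.06 (SE, adjusted p = 8.25e-12), and was not called with LLY-283, at 0.16 ± 0.05 (SE, adjusted p = 0.0116). COL27A1 fell in both, by more in vehicle, at -0.91 ± 0.06 (SE, adjusted p = 3.24e-10) and -0.21 ± 0.05 (SE, adjusted p = 0.000519). COL18A1 fell in vehicle, at -0.36 ± 0.09 (SE, adjusted p = 0.00106), and had -0.26 ± 0.09 (SE, adjusted p = 0.0163) with LLY-283. COL26A1 fell in both, at -1.27 ± 0.31 (SE, adjusted p = 0.00111) in vehicle and -0.80 ± 0.25 (SE, adjusted p = 0.00844) with LLY-283. The fall of COL18A1 in vehicle was lost without Vehicle day 5 replicate 1 (adjusted p = 0.0151), and that of COL26A1 was lost without Vehicle day 0 replicate 2 (adjusted p = 0.0119) or Vehicle day 5 replicate 1 (adjusted p = 0.0106). With LLY-283 the fall of COL26A1 was lost in 5 of the 6 fits that left out 1 library, all except that without LLY-283 day 5 replicate 3, with an adjusted p of at most 0.0401.

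COL9A1, COL5A2, COL6A2, COL4A1, COL4A2 and COL4A6 rose with LLY-283 and were not called in vehicle. With LLY-283 their log2 fold changes were 2.11 ± 0.10 (SE, adjusted p = 9.83e-15) for COL9A1, 0.46 ± 0.03 (SE, adjusted p = 1.29e-11) for COL5A2 and 0.39 ± 0.04 (SE, adjusted p = 8.29e-09) for COL6A2. The basement membrane chains rose by 0.37 ± 0.04 (SE, adjusted p = 4.28e-08) for COL4A1, 0.24 ± 0.03 (SE, adjusted p = 9.63e-07) for COL4A2 and 0.46 ± 0.07 (SE, adjusted p = 5.38e-06) for COL4A6. In vehicle the values were 0.21 ± 0.17 (SE, adjusted p = 0.305) for COL9A1, 0.11 ± 0.04 (SE, adjusted p = 0.0150) for COL5A2, -0.12 ± 0.04 (SE, adjusted p = 0.0147) for COL6A2, -0.07 ± 0.04 (SE, adjusted p = 0.143) for COL4A1, 0.03 ± 0.04 (SE, adjusted p = 0.570) for COL4A2 and 0.03 ± 0.08 (SE, adjusted p = 0.817) for COL4A6. COL11A1 and COL12A1 also rose with LLY-283, by 2.43 ± 0.44 (SE, adjusted p = 5.48e-05) and 0.89 ± 0.28 (SE, adjusted p = 0.00857). In vehicle COL12A1 had 1.04 ± 0.41 (SE, adjusted p = 0.0458) and COL11A1 was not tested, with a mean of 0.120 CPM at day 0 and 0.774 CPM at day 5. The difference between the groups' changes was not called in either, at -0.20 ± 0.88 (SE, adjusted p = 0.900) for COL11A1 and -0.15 ± 0.51 (SE, adjusted p = 0.872) for COL12A1. The COL12A1 call was lost without LLY-283 day 0 replicate 1, LLY-283 day 0 replicate 2, LLY-283 day 5 replicate 2 or LLY-283 day 5 replicate 3, with adjusted p-values from 0.0130 to 0.0612.

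The difference between these changes was tested itself, as the change from day 0 to day 5 with LLY-283 less that in vehicle. Of 28 collagens tested, 9 had a positive difference and 0 a negative one at an adjusted p under 0.01, and 14 had an unadjusted p under 0.05. A positive difference is a greater rise or a lesser fall with LLY-283, and for COL19A1 and COL27A1 it was vehicle that fell further. Over the 18369 genes tested, 6.78% were called positive and 8.15% negative. DESeq2 called 8, all positive. In a shared fit of all 22 libraries of days 0 to 7, COL6A2 was the only one of the 9 that was called, and the calls of COL9A1, COL19A1, COL27A1, COL5A2, COL4A1, COL4A2, COL4A5 and COL4A6 were lost. The difference was 1.91 ± 0.18 (SE, adjusted p = 1.99e-08) for COL9A1 on the log2 scale, 0.91 ± 0.08 (SE, adjusted p = 1.5e-09) for COL19A1 and 0.71 ± 0.08 (SE, adjusted p = 1.49e-06) for COL27A1. It was 0.51 ± 0.06 (SE, adjusted p = 1.37e-07) for COL6A2 and 0.36 ± 0.05 (SE, adjusted p = 3.73e-06) for COL5A2. For the basement membrane chains it was 0.45 ± 0.06 (SE, adjusted p = 2.54e-06) for COL4A1, 0.31 ± 0.06 (SE, adjusted p = 0.000377) for COL4A5, 0.22 ± 0.05 (SE, adjusted p = 0.00137) for COL4A2 and 0.45 ± 0.11 (SE, adjusted p = 0.00279) for COL4A6. COL11A2, COL7A1 and COL9A3 had 1.28 ± 0.42 (SE, adjusted p = 0.0248), 0.69 ± 0.22 (SE, adjusted p = 0.0226) and -0.25 ± 0.08 (SE, adjusted p = 0.0215) and were not called. COL16A1, also called at day 5, had 0.66 ± 0.26 (SE, adjusted p = 0.0692) and was not called. Its change from day 0 to day 5 was not called in either group. It was -0.43 ± 0.20 (SE, adjusted p = 0.0800) in vehicle and 0.23 ± 0.17 (SE, adjusted p = 0.292) with LLY-283. The COL4A6 call was lost without Vehicle day 0 replicate 2 (adjusted p = 0.0216), Vehicle day 5 replicate 2 (adjusted p = 0.0120) or LLY-283 day 5 replicate 3 (adjusted p = 0.0105), and the COL4A2 call without LLY-283 day 0 replicate 2 (adjusted p = 0.0109).

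**Figure D4:**
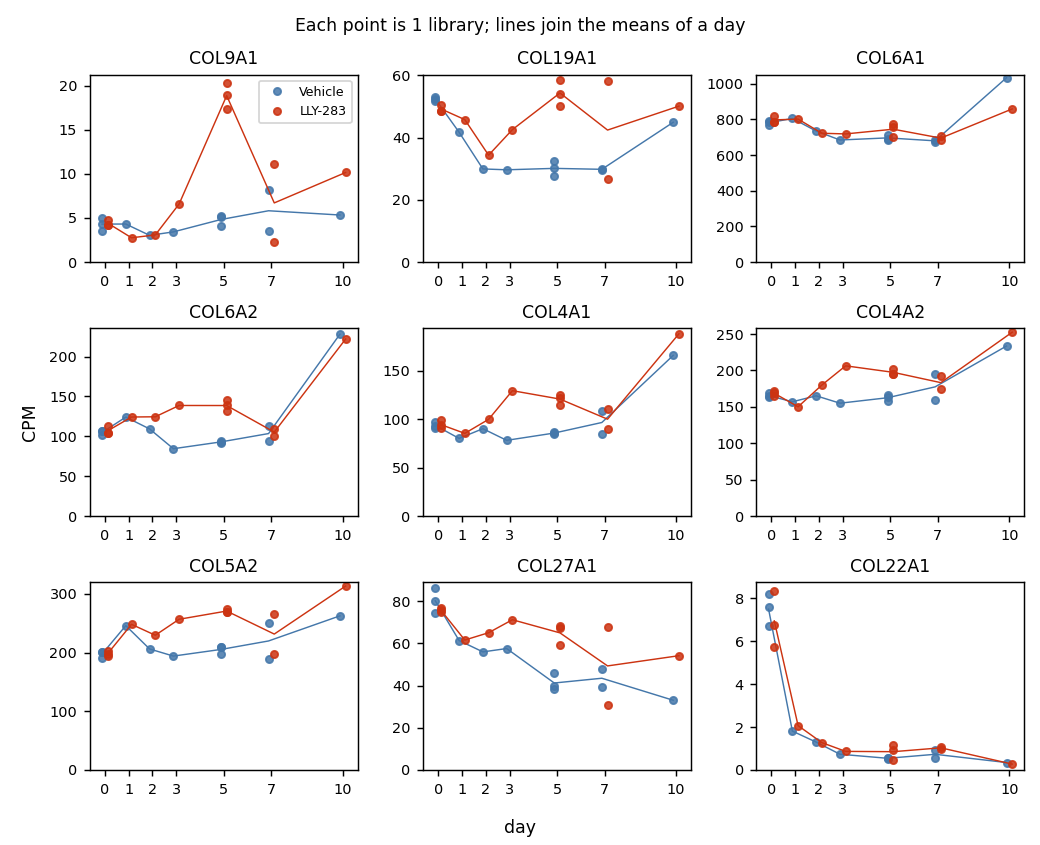
CPM of 9 collagens by day, with each point 1 library and lines through the mean of each day. COL9A1 parts from vehicle at day 3 and reaches 17.3 to 20.3 CPM with LLY-283 at day 5. COL19A1 and COL27A1 fall in vehicle, COL6A1 runs together in both groups, COL22A1 falls in both, and the points of day 7 spread widely within a group.

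The days with 1 library a group gave values and no test. For the 12 collagens higher at day 5, the difference of LLY-283 less vehicle in log2(CPM + 0.1) was above 0 in 7 at day 1, with a median of 0.00, and in 11 at day 2, with a median of 0.15. At day 3 it was above 0 in all 12, with a median of 0.52 and a range from 0.18 to 0.92. At day 10 it was above 0 in 10 of 12, with a median of 0.17 and a range from -0.28 to 0.92. Each of these days has a single pair of libraries, so the counts describe that pair and not a course in time. The genes of a day share that pair and are not replicates of it. The share among all genes higher at day 5 was not computed. The LLY-283 library of day 2 is also among the peak libraries described below. At day 7 the repeats went apart. In repeat 1 it was above 0 in all 12, with a median of 0.55, and in repeat 2 in 1 of 12, with a median of -0.22.

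Tested by label at day 7, edgeR called 0 of 29 collagens, 1 had an unadjusted p under 0.05, and DESeq2 called 0. Over the 16826 genes tested, 0% were called higher and 0% lower, and 236 had an unadjusted p under 0.05. Without Vehicle day 7 replicate 2, 3 collagens were called lower with LLY-283, namely COL1A1, COL1A2 and COL3A1, which were set apart below for peaking in the single vehicle library left. That count restates how they were chosen and is no result, and the LLY-283 libraries alone gave its spread. The test of treatment by day over the 22 libraries of days 0 to 7 called 0 of 30 collagens with edgeR and 2 with DESeq2, 6 had an unadjusted p under 0.05, and 0.0289% of 20756 genes were called. COL6A2 was nearest, with an adjusted p of 0.0107. Without both day 7 repeat 2 libraries the test called 10 collagens, namely COL4A1, COL4A2, COL4A5, COL4A6, COL5A2, COL6A2, COL9A1, COL9A3, COL19A1 and COL27A1. Those libraries were singled out by their collagen values, so leaving them out favours such calls and the count is no independent result. The share of all genes called was not recorded for that fit, for this test with DESeq2 or for the fits that left out 1 library. Leaving out 1 library gave between 0 and 6, with 6 without LLY-283 day 7 replicate 1, 4 without Vehicle day 7 replicate 1, 3 without LLY-283 day 7 replicate 2 and 2 without Vehicle day 7 replicate 2.

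Day 10 was the collagen-richest time, with summed levels of 2300 CPM for the vehicle library and 2240 CPM for the treated library. In 5 of the 26 collagens with a mean of at least 1 CPM both libraries of day 10 lay above the other 22, where 6.59% of 14876 genes did. These were COL4A1, COL4A2, COL6A1, COL6A2 and COL9A2. COL6A2 stood at 228 and 222 CPM in vehicle and LLY-283 at day 10, against a highest value of 145 CPM elsewhere, and COL6A1 at 1034 and 859 CPM against 819 CPM. COL22A1 was the only one of the 26 for which both libraries lay below the others, where 6.08% of genes did. With 1 library a group, day 10 has no replicate check.

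COL1A1, COL1A2 and COL3A1, the fibrillar chains of types I and III that make up most connective tissue collagen, peaked in libraries of both treatment groups and of different days. They were kept apart by their measured values, so the peaks are a description with no test. A gene was put in this group when its 3 highest libraries were the LLY-283 library of day 2 and, from vehicle, repeat 3 of day 5 and repeat 1 of day 7, the lowest of these was at least 2 times the highest of the other 21 (CPM plus 0.1), and each had at least 10 counts. COL1A1 stood at 32.4, 52.7 and 30.4 CPM in these libraries, in that order, and between 4.63 and 10.97 CPM in the other 21. COL1A2 stood at 16.6, 36.1 and 16.9 CPM against 0.300 to 3.23 CPM. COL3A1 stood at 5.62, 9.18 and 5.04 CPM against 0 to 0.745 CPM. Vehicle day 5 repeat 3 was the highest for each gene, and the other repeats of the same group and day did not share the peak. The ratio of the lowest peak library to the highest other was 2.75 for COL1A1, 5.02 for COL1A2 and 6.08 for COL3A1.

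Just outside the rule stood COL12A1, whose 3 highest libraries were the same but with a ratio of 1.18. No other collagen had its 3 highest values there, and among those with at least 10 counts in each of the 3 libraries the next ratios were 0.98 for COL6A3, 0.89 for COL8A1, 0.77 for COL20A1 and 0.75 for COL11A1. Over all 15108 genes with at least 10 counts in each of the 3 libraries, 13 met the rule, or 0.086%. The other 10 were S100A6, MYL9, EFEMP1, TGFBI, FSTL1, BGN, FN1, COMP, MFAP5 and THBS1. FN1, fibronectin, stood at 26.7, 59.1 and 29.2 CPM in the peak libraries and at or below 8.28 CPM in the other 21. Above the median of the other 21, COL1A1 exceeded COL1A2 by 1.59, 1.29 and 1.44 times in the 3 libraries, COL1A2 exceeded COL3A1 by 2.89, 3.91 and 3.31 times, and FN1 exceeded COL1A2 by 1.54, 1.61 and 1.66 times. COL5A2, which lies 19152 bases from COL3A1 on chromosome 2, stood at 229, 209 and 189 CPM in these libraries and COL6A1 at 722, 714 and 687 CPM, none of them above the highest of the other 21. Of the 20 fibroblast markers 2, FN1 and MFAP5, had their 3 highest values there. The list summed to between 2543 and 2783 CPM in the peak libraries and between 2370 and 3416 CPM in the others. VIM, S100A4 and SPARC, with medians of 1368, 551 and 422 CPM over all libraries, carried that sum. It therefore cannot show a rise of the size of that of FN1, which was 24.1 to 56.5 CPM above the median of the other 21. DCN, a defining fibroblast gene, had a median of 0.636 CPM over all libraries. It stood at 1.77 CPM or more in the peak libraries, with its highest value, 3.69 CPM, among them. It also reached 3.19 CPM in the other 21, so its 3 highest libraries were not the peak libraries. TAGLN and FBN1 also had their highest value among the peak libraries, at 7.30 and 23.6 CPM, as did TWIST1 and TWIST2, at or below 0.212 CPM. PRRX1 and ACTA2 instead had their lowest value of all libraries there, at 66.5 and 50.3 CPM. In the lowest peak library POSTN stood at 17.7 CPM and LUM at 21.3 CPM, against medians of 55.9 and 21.4 CPM over all libraries. The part of other cells in these peaks was not tested.

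**Figure D5:**
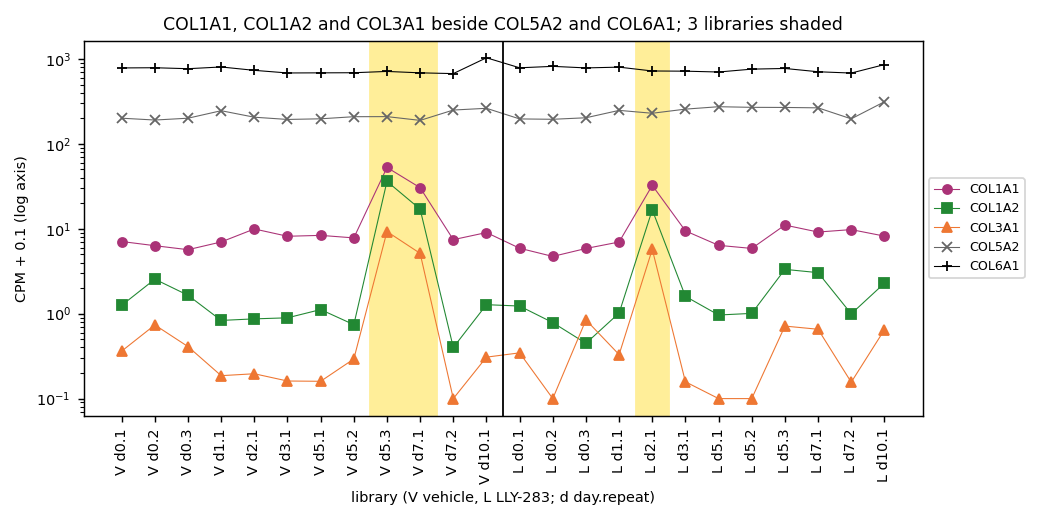
CPM + 0.1 on a log axis of COL1A1, COL1A2, COL3A1, COL5A2 and COL6A1 in the 24 libraries, vehicle on the left and LLY-283 on the right, with the LLY-283 library of day 2 and, from vehicle, repeat 3 of day 5 and repeat 1 of day 7 shaded. COL1A1, COL1A2 and COL3A1 peak together in the shaded libraries, and COL5A2 and COL6A1 run level through them.

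In the remaining libraries these genes were low. COL1A1 at day 0 stood at 6.98, 6.22 and 5.57 CPM in vehicle and 5.80, 4.63 and 5.76 CPM with LLY-283. COL1A2 at day 0 stood at 1.15, 2.45 and 1.55 CPM in vehicle and 1.13, 0.685 and 0.348 CPM with LLY-283, and COL3A1 at 0.262, 0.637 and 0.310 CPM in vehicle and 0.246, 0 and 0.745 CPM with LLY-283. COL1A1 at days 1, 2, 3 and 10 stood at 6.90, 9.86, 8.07 and 8.93 CPM in vehicle and 6.89, 32.4, 9.35 and 8.10 CPM with LLY-283. It was below 10 CPM on each of these days except day 2 with LLY-283. COL1A2 on the same days stood at 0.733, 0.769, 0.794 and 1.18 CPM in vehicle and 0.918, 16.6, 1.5 and 2.18 CPM with LLY-283, and COL3A1 at 0.0862, 0.0962, 0.0611 and 0.208 CPM in vehicle and 0.230, 5.62, 0.0577 and 0.546 CPM with LLY-283. At day 5, COL1A1 stood at 8.27, 7.71 and 52.7 CPM in vehicle and 6.29, 5.77 and 11 CPM with LLY-283, COL1A2 at 1.02, 0.643 and 36.1 CPM in vehicle and 0.865, 0.908 and 3.23 CPM with LLY-283, and COL3A1 at 0.0599, 0.193 and 9.18 CPM in vehicle and 0, 0 and 0.615 CPM with LLY-283. Both treatment groups had their highest value of day 5 in repeat 3. COL1A1 and COL1A2 were among the 26 collagens fitted at that day and were not called, and COL3A1 was not tested. No p is given for them, since these libraries entered the choice. At day 7 COL1A1 stood at 30.4 and 7.35 CPM in vehicle and 9.06 and 9.69 CPM with LLY-283, COL1A2 at 16.9 and 0.300 CPM in vehicle and 2.94 and 0.896 CPM with LLY-283, and COL3A1 at 5.04 and 0 CPM in vehicle and 0.556 and 0.0560 CPM with LLY-283. Without Vehicle day 5 replicate 3, 12 collagens were called at day 5, and COL11A2 was the call that was lost.

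The 18 collagens with a mean under 1 CPM were COL2A1, COL4A3, COL4A4, COL5A3, COL6A5, COL6A6, COL8A1, COL8A2, COL10A1, COL11A1, COL13A1, COL14A1, COL15A1, COL17A1, COL21A1, COL23A1, COL24A1 and COL25A1. They include COL2A1, the main chain of cartilage fibrils, COL10A1 of the growth plate and all 4 transmembrane collagens. Their means ran from 0 to 0.884 CPM, 8 were under 0.1 CPM, and their highest value in any library was 2.67 CPM, for COL8A1 in vehicle day 5 repeat 3. COL8A1 and COL11A1 were the only ones of these tested at day 5, and COL8A1 had a log2 fold change of -0.93 ± 0.72 (SE, adjusted p = 0.369). COL6A5 had 0 counts in all 24 libraries, and in the smallest library 3 counts, the upper limit that a count of 0 allows, would be 0.217 CPM. In all, 14 of the 44 genes were at 0 in at least 1 library. Of these genes COL11A1 alone was called in any comparison, and at such counts the counting error is large.

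Genes that modify, export, cut, bind or degrade collagen were taken from 6 lists with 73 genes, of which 58 were tested at day 5. Of these, 19 were higher with LLY-283 and 5 were lower, beside 12% and 14.1% of all genes tested. The lists were chosen with earlier results of these data known, so setting them beside all genes is not a blind comparison. MATN2, for example, was reported as upregulated by the study itself. Of 14 tested genes that hydroxylate or glycosylate collagen, 3 were higher and 1 was lower, with a median log2 fold change of 0.04. COLGALT2, a collagen galactosyltransferase, averaged 311 ± 10.5 CPM without LLY-283 and 439 ± 17.8 CPM with it (SD, n = 3), a log2 fold change of 0.47 ± 0.04 (SE, adjusted p = 8.28e-11). PLOD2, a lysyl hydroxylase, had 0.51 ± 0.04 (SE, adjusted p = 1.47e-10) and P3H2, a prolyl 3-hydroxylase, had 0.26 ± 0.04 (SE, adjusted p = 4.9e-06). P4HA1, a catalytic subunit of prolyl 4-hydroxylase, was lower, at -0.17 ± 0.04 (SE, adjusted p = 0.00197). The list thus held changes in both directions. Of 10 chaperone and export genes 1 was higher, FKBP10 at 0.28 ± 0.04 (SE, adjusted p = 1.95e-05), and 2 were lower, PDIA4 at -0.26 ± 0.03 (SE, adjusted p = 9.53e-07) and HSPA5 at -0.25 ± 0.04 (SE, adjusted p = 2.55e-06), with a median of 0.01.

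Among 10 tested genes of propeptide cleavage and cross-linking 3 were higher and 1 was lower, with a median log2 fold change of 0.09. TLL1, a metalloproteinase that cuts procollagen, averaged 5.25 ± 0.634 CPM without LLY-283 and 19.4 ± 2.58 CPM with it, a log2 fold change of 1.86 ± 0.12 (SE, adjusted p = 2.16e-12). PCOLCE, which enhances that cut, had 0.48 ± 0.13 (SE, adjusted p = 0.00558), LOXL3 had 0.28 ± 0.07 (SE, adjusted p = 0.00191), and LOXL1 was lower, at -0.35 ± 0.08 (SE, adjusted p = 0.00176). LOXL1 and LOXL3 are lysyl oxidases, so enzymes of 1 family differed in opposite directions. Among 9 tested collagen receptors 5 were higher and 0 lower, with a median of 0.32. ITGA10, the integrin chain that binds collagen on chondrocytes, averaged 5.25 ± 0.372 CPM without LLY-283 and 15.0 ± 1.70 CPM with it, a log2 fold change of 1.49 ± 0.12 (SE, adjusted p = 7.93e-11). The collagen-binding receptor kinases DDR1 and DDR2 had 0.61 ± 0.05 (SE, adjusted p = 8.59e-11) and 0.32 ± 0.04 (SE, adjusted p = 2.76e-07). MRC2, which takes up collagen for degradation, had 0.52 ± 0.04 (SE, adjusted p = 7.76e-12).

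Among 10 tested breakdown genes 4 were higher and 1 was lower, with a median of 0.11. CTSK, the collagen-degrading cathepsin of bone, had a log2 fold change of 0.99 ± 0.18 (SE, adjusted p = 6.81e-05) and MMP9, a gelatinase, had 0.20 ± 0.04 (SE, adjusted p = 0.000137). The metalloproteinase inhibitors TIMP1 and TIMP4 had 0.23 ± 0.04 (SE, adjusted p = 1.86e-05) and 0.60 ± 0.11 (SE, adjusted p = 0.000118). The lower gene was the inhibitor TIMP3, at -0.13 ± 0.04 (SE, adjusted p = 0.00436), which is named here after its value was seen. The inhibitors thus differed in both directions. Of 10 cartilage-type partners 5 were tested, and of these 3 were higher and 0 lower, with a median of 0.43. COMP, ACAN, HAPLN1, MATN1 and MATN3 did not pass the count filter. COMP, a gene of the peak libraries, averaged 2.02 ± 3.19 CPM without LLY-283 and 0.574 ± 0.657 CPM with it (SD, n = 3). ACAN and HAPLN1 also had lower means with LLY-283, and MATN1 and MATN3 higher ones, all at or below 0.416 CPM. MATN2, a matrilin of the pericellular matrix, averaged 22.6 ± 1.54 CPM without LLY-283 and 70.3 ± 1.40 CPM with it, a log2 fold change of 1.61 ± 0.06 (SE, adjusted p = 5.41e-18). The cartilage transcription factors SOX9 and SOX6, which glial precursors also express, had 0.43 ± 0.03 (SE, adjusted p = 1.44e-10) and 0.25 ± 0.05 (SE, adjusted p = 6.7e-05).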

How the data were processed

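Poly(A) RNA of HSJD-DIPG-007 cells was made into libraries with a directional kit. The authors assigned trimmed reads to the human transcriptome (hg38) with kallisto, and the estimated counts they deposited, 1 per gene in each library, are whole numbers without normalization. All 24 columns were used. Of 58676 identifiers, 58207 were matched to a symbol of GENCODE on GRCh38. Library totals lay between 13835205 and 23190369 counts. The strand setting of the counting, the trimming tool and tool versions are not given in the sources used here.

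CPM were computed by library total. Differences were tested with edgeR 4.0.16 in R 4.3.3 (TMM, filterByExpr on group and day, quasi-likelihood test with robust dispersion, Benjamini-Hochberg adjustment over all genes tested), with calls at an adjusted p under 0.01. The SE was the log2 fold change divided by the square root of F. Day 0, day 5 and day 7 were fitted within their own libraries, the time course over 22 libraries, and the changes from day 0 to day 5 over 12. Per-length levels divided CPM by the MANE Select transcript length.

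The members and lists were chosen with earlier results of these data known. Genes named with their values were the collagens with a mean of at least 1 CPM or a call in any comparison, and for each list of collagen partners the 4 called genes of smallest p. The alternatives were DESeq2 1.42.0, other scaling and filters, an adjusted p under 0.05, a shared fit, a block for the repeat number and leaving out libraries. The pairing check correlated deviations from the group means over genes. Equal repeat numbers had correlations between -0.0678 and 0.0700 at days 0 and 5, and of -0.163 at day 7, so the numbers were not taken to pair libraries. Libraries of a group differed by more than counting noise, so each was counted once. Each test was run on simulated counts with the same dispersion for all genes and no library effects. That checks the working of the tests and not their error rate in these libraries. The floor given for a count of 0 covers counting error only, whereas the SD and SE values take in the spread between libraries.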

Additional observations from a re-analysis of the deposited data

Results flagged for a closer look

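Each of the following collagens changed from day 0 to day 5 by a different amount in the treatment groups, by the test of that difference with edgeR over 12 libraries, and each is given as the log2 change with LLY-283 less that in vehicle, with its SE and adjusted p. COL9A1 had 1.91 ± 0.18 (adjusted p = 1.99e-08), and the LLY-283 libraries of day 5 lay above all other libraries. COL19A1 had 0.91 ± 0.08 (adjusted p = 1.5e-09), with the fall in vehicle. COL27A1 had 0.71 ± 0.08 (adjusted p = 1.49e-06), with falls in both groups. COL6A2 had 0.51 ± 0.06 (adjusted p = 1.37e-07). COL4A1 had 0.45 ± 0.06 (adjusted p = 2.54e-06) and COL4A6 had 0.45 ± 0.11 (adjusted p = 0.00279). COL5A2 had 0.36 ± 0.05 (adjusted p = 3.73e-06). COL4A5 had 0.31 ± 0.06 (adjusted p = 0.000377) and COL4A2 had 0.22 ± 0.05 (adjusted p = 0.00137). In a shared fit of all 22 libraries of days 0 to 7, COL6A2 kept its call and the other 8 lost theirs.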

How the results depend on the processing

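At day 5, 13 collagens were called and between 10 and 14 with DESeq2, other scaling, filters or leaving out 1 library, with 10 with DESeq2 or without LLY-283 day 5 replicate 2. COL7A1 and COL9A3 are named above as lost with DESeq2. A collagen given no adjusted p by DESeq2 was neither counted as called nor named as lost. The shared fit of all 22 libraries, which takes in the spread of day 7, called 7 collagens, 11 partner genes and 2042 of all genes at day 5, against 24 partner genes and 4304 genes otherwise, and 1 collagen, COL6A2, in place of 9 for the difference in change from day 0 to day 5. At day 7, leaving out 1 library gave 0 to 3 collagens. The time course called 0 collagens, 1 at an adjusted p under 0.05, with DESeq2 size factors, with library size alone or with at least 10 counts in every library, 2 with DESeq2, 6 with no filter, 0 to 6 leaving out 1 library, 10 without both day 7 repeat 2 libraries and 5 without the 3 peak libraries and day 2. The day 7 repeat 2 libraries were singled out by their collagen values, so the count without both is no independent result. The share of all genes called was not recorded for these alternatives of the time course. The cause of these differences was not tested. Leaving out 1 library gave 20 to 27 partner genes and 3193 to 4425 genes at day 5, 9 to 11 collagens for vehicle and 14 to 17 for LLY-283 from day 0 to day 5, 8 to 10 for the difference and 0 to 0 at day 0. With the replicate block, 13 collagens, 25 partner genes and 4401 genes were called at day 5, 10 in vehicle, 19 with LLY-283, 9 for the difference and 0 in each other comparison. The block with crossed repeat numbers at day 7, added after the values were seen, called 0. Over the alternatives, 55 of 722 fits of single collagens lost the call and none of them reversed. The 722 include the threshold of 0.05, at which no call can be lost. They leave out genes removed by a filter or given no adjusted p by DESeq2, so the share lost is a low estimate. The peak group held 3 collagens at 1.5 or 2 times and 2, COL1A2 and COL3A1, at 4 times. Technical repeats, 1 library on 4 of 7 days and low counts limit these results.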
